A study of Macaca fascicularis with 56 samples.

Results

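The genes described here are CSF1R, CX3CR1, VMO1, NEURL1B, SASH1, EPDR1 and CDKN1C (7 of 16020 genes tested). They were chosen from measured values, as genes of CD16-positive monocytes, or genes falling with them, whose blood level was below that of 0 h in the hours after an endotoxin challenge. Each gene was read by the probe set that names it alone, and by the one with the highest mean log2 intensity over all 56 arrays where there were several. All 7 passed the filter on low values. EPDR1 was above its array's median on 8 of 56 arrays, all of them at 0 h. It passed only through that hour, so its steps between later hours are given as a description. Because the changes from 0 h served to choose these genes, those changes are given below as a description, without a test. The tests concern steps between later hours and differences between arms. These tests share the 2, 4 and 8 h arrays with the changes that picked the genes. A low value at 2 h thus enters the choice, the later rise and the differences between arms.

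Whole blood was taken from 14 cynomolgus macaques (Macaca fascicularis) at 0, 2, 4 and 8 h, and each of the 56 samples was hybridised to 1 human 3′ expression array. Animals Y31301 to Y31304 (n = 4) formed the arm labelled Vehicle, Y31305 to Y31308 (n = 4) received the scrambled LR12 peptide as peptide control, and Y31309 to Y31314 (n = 6) received LR12. The series title places the scrambled peptide and LR12 after an endotoxin challenge, and the labels do not say if the Vehicle animals were given endotoxin as well, when hour 0 fell relative to the challenge, or the doses and ages. LR12 is a TREML1-derived peptide that binds the ligands of TREM-1 in its place; TREM-1 is a receptor that amplifies inflammatory signalling in neutrophils and monocytes. No normal or unchallenged group is labelled as such, so the peptide control and LR12 arms are set against the vehicle arm and against their own 0 h samples.

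Blood monocytes are commonly divided into classical cells, which carry much CD14, and CD16-positive cells, which include the patrolling monocytes that crawl along the vessel wall. The patrolling cells depend on signals through the CSF1 receptor and carry much of the fractalkine receptor CX3CR1, which binds a ligand held on endothelial cells. Endotoxin is known to clear monocytes from the blood within hours, CD16-positive cells among them, with later return. The 7 genes hold 2 surface receptors (CSF1R, the receptor tyrosine kinase for CSF1 and IL-34, and CX3CR1), a secreted protein (VMO1, the homolog of an outer-layer protein of the vitelline membrane), a ubiquitin ligase that acts on Notch ligands (NEURL1B), an adaptor scaffold with SAM and SH3 domains (SASH1), a lysosomal protein related to ependymins (EPDR1) and an inhibitor of cyclin-dependent kinases (CDKN1C, also called p57). In whole blood, fewer cells of a type and less RNA per cell cannot be told apart. FCGR3A, the gene of CD16 itself, was not analysed here, so the CD16-positive cells were read through other genes.

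Values are log2 of the deposited intensity, 1 unit being a doubling. The probes were designed for human transcripts, so levels are compared between arrays of 1 gene and not between genes. The median intensity of an array lay between 12.9 and 23.5, and its mean was 18.4 ± 2.0 (SD, n = 14) over the arrays of hour 0, 18.0 ± 0.68 over those of hour 2, and 15.5 ± 2.1 and 15.9 ± 1.8 over those of hours 4 and 8. Spiked poly-A controls, 24 probe sets, separated 24 arrays with high from 32 arrays with low control signal. The 2 h arrays of the vehicle arm were all in the low set and the 4 h arrays of the peptide control arm all in the high set. The number of arrays limits the precision of every value. Each p-value rests on 1 spread per gene, pooled over the 12 groups of arm and hour. Arrays of 1 animal count as independent there, so the pairing of hours enters only where the animal was set as a block in the fit.

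Y31303 (vehicle) and Y31305 (peptide control) stood apart from their arms, an observation made after their values were seen. ICAM1, an adhesion molecule induced by endotoxin, was 4.84 higher at 2 h than at 0 h in Y31303, against -0.40 to 0.08 in the other 3 vehicle animals. In Y31305 the same difference was -0.21, against 4.99 to 5.73 in the other peptide control animals and 4.59 to 6.27 in the LR12 animals. Whether a sample or arm was mixed up was not tested. Both animals were kept in the groups of their labels, so every vehicle and peptide control mean and test below includes an animal in doubt, and results that rest on them are given with and without them. Fits without them are descriptions, since their own values led to leaving them out. An adjusted p given for such a fit is no test.

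CSF1R was lowest at 2 h in 13 of 14 animals. In the vehicle arm its level at 0 h was 10.89, 10.75, 9.93 and 10.73 in Y31301 to Y31304. At 2 h the same animals read 10.17, 9.93, 5.48 and 10.37, then 10.69, 9.96, 6.93 and 10.36 at 4 h and 10.73, 10.47, 9.52 and 10.87 at 8 h. Y31303 alone was low at 2 and 4 h, and the other 3 vehicle animals stayed above 9.9 at every hour. The peptide control animals Y31305 to Y31308 read 10.56, 10.84, 10.10 and 10.40 at 0 h and 9.94, 7.04, 6.71 and 7.13 at 2 h. Later values were 10.32, 8.62, 7.64 and 8.89 (4 h) and 10.99, 10.14, 9.996 and 10.40 (8 h). Y31305 was the high animal at 2 h, and at 8 h the 4 animals overlapped their 0 h levels. In the LR12 arm the lowest, median and highest values were 8.84, 10.30 and 11.21 at 0 h, then 5.31, 6.13 and 6.68 (2 h), 7.56, 8.15 and 8.51 (4 h) and 9.51, 10.26 and 10.47 (8 h). The 2, 4 and 8 h values of the LR12 animals did not overlap one another, a description without a count over all genes. The mean change from 0 h in that arm was -4.16 ± 0.92 (SD, n = 6) (2 h), -2.15 ± 0.71 (4 h) and -0.03 ± 0.92 (8 h). In the peptide control arm it was -2.77 ± 1.45, -1.61 ± 1.0 and -0.10 ± 0.47 (n = 4), and in the vehicle arm -1.59 ± 1.92, -1.09 ± 1.3 and -0.18 ± 0.24 (n = 4).

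CX3CR1 was lowest at 2 h in 13 of 14 animals too. Vehicle animals read 12.16, 11.45, 10.90 and 11.13 at 0 h and 11.41, 10.82, 7.51 and 11.21 at 2 h. Later values were 11.89, 11.16, 8.85 and 11.28 (4 h) and 11.74, 11.43, 10.30 and 11.03 (8 h). Y31303 was again the only low vehicle animal at 2 and 4 h. Peptide control animals read 11.31, 11.28, 10.9995 and 10.86 at 0 h, and 11.22, 7.92, 7.94 and 8.16 at 2 h. At 4 h they read 11.31, 9.82, 9.02 and 9.67, and at 8 h 11.53, 10.93, 10.45 and 10.75. Y31305 barely moved, and the other 3 were between 7.92 and 8.16 at 2 h. LR12 animals had a median of 10.92 at 0 h (10.54 to 11.57), 7.78 at 2 h (range 7.27 to 8.59), 9.11 at 4 h (7.98 to 9.63) and 10.57 at 8 h (9.99 to 10.70). The mean change from 0 h in this arm was -3.05 ± 0.45, -1.92 ± 0.88 and -0.55 ± 0.49 (SD, n = 6), against -2.30 ± 1.5, -1.16 ± 0.84 and -0.19 ± 0.33 with the control peptide and -1.17 ± 1.52, -0.61 ± 0.98 and -0.29 ± 0.27 with vehicle (both n = 4). A second CX3CR1 probe set followed the first (Pearson r = 0.863 over 56 arrays of the same libraries) and gave mean changes of -2.87, -1.84 and -0.94 in the LR12 arm.

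NEURL1B was low at 2 h in the LR12 arm, near the bottom of the arrays' range. Vehicle animals read 8.65, 8.49, 7.93 and 8.30 at 0 h, then 8.31, 7.39, 1.61 and 7.71 (2 h), 8.06, 6.81, 3.95 and 8.55 (4 h) and 7.96, 6.76, 6.97 and 8.57 (8 h). Peptide control animals read 8.02, 8.27, 7.37 and 8.03 at 0 h, then 7.14, 4.19, 3.98 and 3.51 (2 h), 8.77, 4.98, 5.24 and 6.33 (4 h) and 7.24, 8.69, 7.38 and 8.24 (8 h). Y31303 and Y31305 stood apart at 2 h as for the receptors. In the LR12 arm the lowest, median and highest values were 6.70, 8.30 and 9.17 at 0 h, then -1.14, 0.48 and 3.12 (2 h), 3.20, 4.42 and 5.63 (4 h) and 6.55, 7.14 and 8.39 (8 h). At 2 h 5 of the 6 LR12 arrays were under the 20th percentile of their own array, a range where the signal is mostly noise, so the size of the change there is not defined. Its mean change from 0 h was -7.52 ± 1.90 (SD, n = 6) at 2 h as measured, and -5.85 with every value raised to at least its array's 20th percentile. At 4 and 8 h it was -3.71 ± 0.92 and -0.95 ± 0.81.

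VMO1 was still low at 8 h in the LR12 arm. Vehicle animals read 9.88, 10.30, 8.29 and 7.64 at 0 h and 9.16, 8.96, 2.92 and 8.55 at 2 h. Later values were 9.11, 9.75, 4.57 and 7.76 (4 h) and 8.90, 9.56, 6.45 and 7.61 (8 h). Peptide control animals read 8.24, 8.64, 9.05 and 8.09 at 0 h, then 8.55, 4.84, 4.92 and 3.44 (2 h), 8.11, 1.85, 2.51 and 3.52 (4 h) and 8.64, 5.56, 6.25 and 5.67 (8 h). Y31305 kept its 0 h level throughout, while the other 3 were still below theirs at 8 h. LR12 animals had a median of 7.92 at 0 h (6.83 to 10.05), 1.75 at 2 h (1.20 to 4.47), 3.24 at 4 h (0.94 to 5.33) and 5.29 at 8 h (1.72 to 7.35), with 4 of 6 under the 20th percentile of their array at 2 h. The mean change in this arm was -5.83 ± 0.82, -4.91 ± 1.58 and -3.21 ± 1.20 (SD, n = 6) at 2, 4 and 8 h, or -5.44 at 2 h with values raised to the 20th percentile. A second VMO1 probe set, above the array median on 4 of 56 arrays, did not follow the first (r = 0.246).

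SASH1 had its lowest value at 2 h in 10 animals and at 4 h in 4. Vehicle animals read 7.40, 6.52, 5.21 and 6.62 at 0 h, then 6.86, 6.30, 4.00 and 6.57 (2 h), 6.90, 5.88, 1.08 and 7.25 (4 h) and 6.97, 6.10, 4.99 and 7.01 (8 h). Peptide control animals read 7.5, 7.66, 6.42 and 7.14 at 0 h, then 6.51, 1.80, 3.91 and 3.34 (2 h), 6.64, 4.09, 4.39 and 4.83 (4 h) and 6.96, 7.06, 5.88 and 6.83 (8 h). The same 2 animals stood apart, Y31303 low and Y31305 high. LR12 animals had a median of 6.38 at 0 h (5.10 to 8.00), 4.35 at 2 h (0.44 to 4.95), 3.96 at 4 h (3.32 to 5.35) and 6.17 at 8 h (4.19 to 7.89). Mean changes from 0 h were -2.83 ± 1.35, -2.17 ± 0.47 and -0.26 ± 0.90 in the LR12 arm (SD, n = 6), and -3.29 ± 2.06, -2.19 ± 1.12 and -0.50 ± 0.13 in the peptide control arm (n = 4). A second, dimmer SASH1 probe set did not follow the first (r = 0.138) and gave -0.96 at 2 h in the LR12 arm. With the mean over all SASH1 probe sets, the peptide control change at 8 h was 0.25 instead of -0.50.

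EPDR1 and CDKN1C kept another time course. EPDR1 was lowest at 4 h in 8 animals and at 8 h in 6, and lower than at 0 h in 14 of 14 animals at each later hour. Vehicle animals read 5.05, 4.63, 3.22 and 4.86 at 0 h, then 3.88, 4.07, 2.27 and 3.62 (2 h), 2.95, 0.14, 0.30 and 0.40 (4 h) and 0.05, 0.52, 2.27 and -0.48 (8 h). Peptide control animals read 3.20, 5.09, 4.17 and 3.65 at 0 h, then 1.06, 3.49, 3.73 and 2.64 (2 h), 0.38, -1.54, -0.95 and -0.64 (4 h) and -0.72, -0.55, -0.17 and 1.06 (8 h). The vehicle and peptide control animals overlapped at each of these hours, and Y31303 and Y31305 did not stand apart in the way they did for the other genes. LR12 animals had medians of 4.68, 1.76, -0.44 and -0.28 in the order of the hours. EPDR1 was a dim signal: 30 of 56 arrays, and 6 of 6 LR12 arrays at both 4 and 8 h, were under the 20th percentile of their array, so the size of those changes is not defined either. The LR12 mean change at 8 h was -4.89 ± 1.44 (SD, n = 6) as measured and -3.07 with values raised to the 20th percentile.

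CDKN1C was lowest at 4 h in 9 of 14 animals, at 2 h in 2, at 8 h in 2 and at 0 h in 1. Vehicle animals read 9.04, 7.96, 6.95 and 7.19 at 0 h, then 8.97, 7.30, 5.01 and 7.59 (2 h), 8.78, 7.48, 4.72 and 7.12 (4 h) and 8.39, 7.36, 6.44 and 7.12 (8 h). Peptide control animals read 6.07, 8.46, 8.07 and 7.06 at 0 h, then 7.17, 5.96, 6.04 and 6.38 (2 h), 6.83, 4.89, 5.72 and 4.72 (4 h) and 7.06, 6.74, 6.46 and 6.76 (8 h). Y31305 rose above its own low 0 h value while the other 3 lay below theirs. LR12 animals had a median of 7.56 at 0 h (6.86 to 8.67), 6.06 at 2 h (5.35 to 6.65), 5.39 at 4 h (5.16 to 6.16) and 6.37 at 8 h (5.81 to 7.03). The mean change in this arm was -1.60 ± 0.74, -2.10 ± 0.71 and -1.18 ± 0.42 (SD, n = 6), and the 8 h values overlapped those of 0 h only at their upper end. All 5 CDKN1C probe sets were lower on average at 2 h in the LR12 arm, the other 4 changing by -1.62, -1.64, -3.20 and -1.31.

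**Figure D1:**
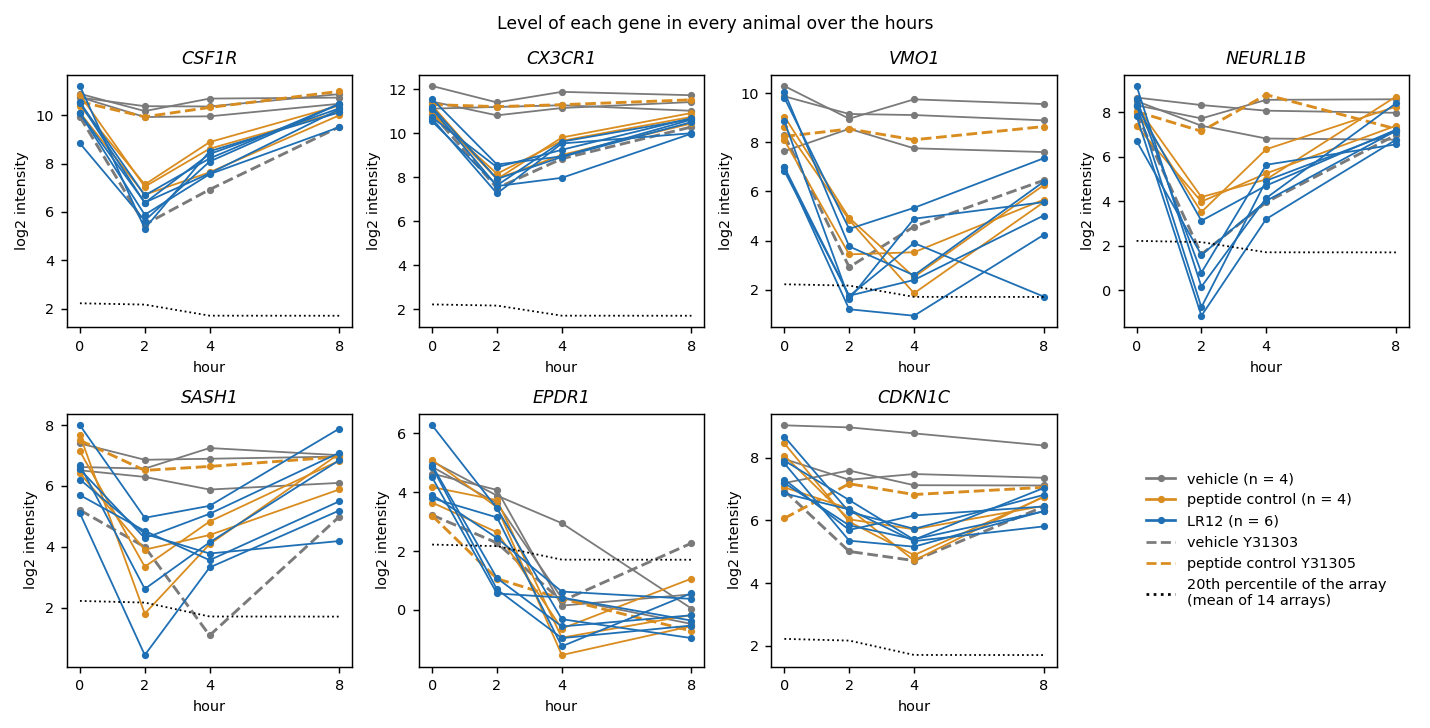
Log2 intensity of each of the 7 genes (vertical axis) against hours 0, 2, 4 and 8 (horizontal axis), 1 line per animal, coloured by arm, with Y31303 and Y31305 dashed and the mean 20th percentile of the arrays dotted. CSF1R, CX3CR1 and NEURL1B dip at 2 h and are back near their 0 h level at 8 h, EPDR1 goes down and stays down, and in most panels dashed Y31303 runs with the peptide arms and dashed Y31305 with the vehicle arm.

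Counted by animal, genes lower than at 0 h by more than 1 at 2 h numbered 1, 2, 6 and 1 in vehicle animals Y31301 to Y31304, 1, 7, 6 and 6 in peptide control animals Y31305 to Y31308, and 7, 7, 7, 6, 6 and 7 in the LR12 animals. At 8 h the numbers were 1, 2, 1 and 1, then 1, 3, 3 and 2, then 3, 4, 5, 5, 3 and 2. The share of all genes lower by more than 1 in each animal was not counted, so these numbers only describe the animals. The median of the 7 mean changes in the LR12 arm was -3.05, -2.17 and -0.95 at the 3 later hours, against -0.18, -0.29 and -0.27 over all 16020 genes. The share of all genes lower than at 0 h in the LR12 arm (limma, adjusted p below 0.05) was 21.9%, 26% and 20.4% at the same hours, and the share higher 10.1%, 10.8% and 8.65%. In the peptide control arm at 2 h, 1.1% were lower and 2.2% higher. Nothing is read from these shares about the 7 genes, which were chosen for this change.

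**Figure D2:**
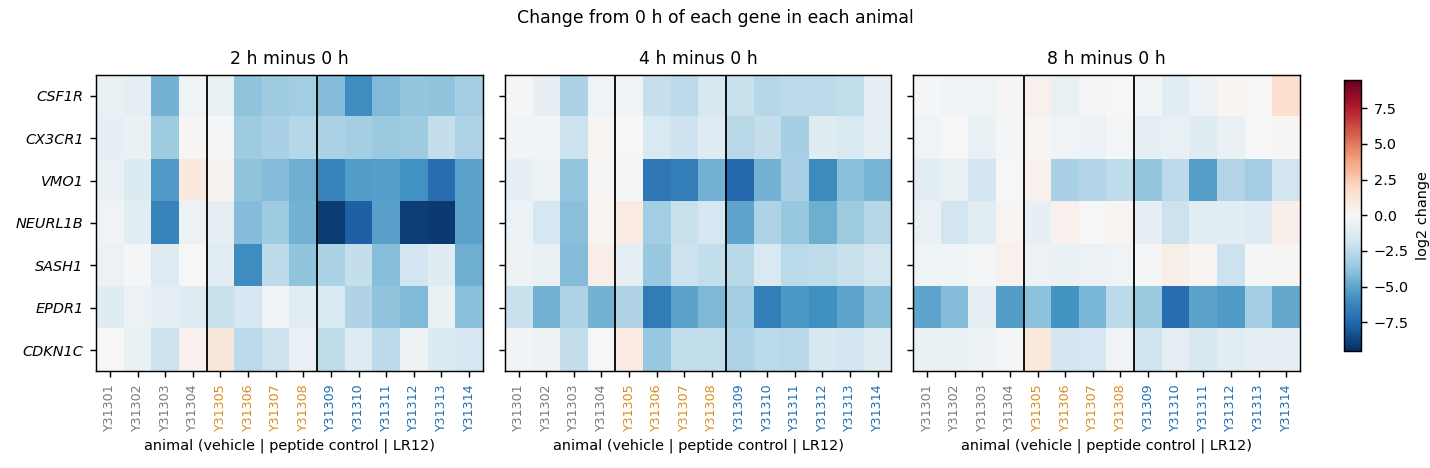
Heat map of the log2 change from 0 h of each gene (rows) in each of the 14 animals (columns, grouped by arm) at 2, 4 and 8 h. At 2 h the LR12 animals and peptide control animals Y31306 to Y31308 are low in nearly all genes, Y31303 is low among the vehicle animals and Y31305 is near 0 among the peptide control animals.

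The return between 2 and 8 h was tested within each arm, with limma on all genes and Benjamini-Hochberg adjustment. The 2 and 4 h arrays also served to choose the genes, so low values there favour a later rise. Counts set beside the share of all genes are therefore a description, here and for the steps below. In the LR12 arm 4 of the 7 genes were higher at 8 h than at 2 h, against 9.66% of all genes, and 1, EPDR1, was lower, against 9.7%. CSF1R rose by 4.13 (SE 0.56, 95% interval 3.02 to 5.25, adjusted p = 1.58e-07) and NEURL1B by 6.57 (SE 0.77, adjusted p = 9.03e-09), or by 4.90 with values raised to the 20th percentile. CX3CR1 rose by 2.50 (SE 0.48, adjusted p = 9.34e-05) and SASH1 by 2.58 (SE 0.77, adjusted p = 0.0123), a call lost without Y31311 or Y31314. For CSF1R, CX3CR1 and NEURL1B the 2 h and 8 h values of the 6 animals did not overlap. How many of all genes do the same was not counted, so nothing is read from it. VMO1 differed by 2.62 (interval 0.53 to 4.72, adjusted p = 0.0692), which passed with the animal as a block (adjusted p = 0.0137). CDKN1C differed by 0.42 (interval -0.54 to 1.38, adjusted p = 0.599). EPDR1 fell by 2.08 further (SE 0.60, adjusted p = 0.00893), and by 0.94 with values raised to the 20th percentile. It passed the filter only through its 0 h arrays, so its steps here and below are a description. The EPDR1 call was lost with an offset of 16 added to the intensities before the log (-0.29, adjusted p = 0.265) and without Y31310. Within the low-control arrays alone, the steps were 4.27 for CSF1R (adjusted p = 0.000332), 2.65 for CX3CR1 (adjusted p = 0.0059) and 6.81 for NEURL1B (adjusted p = 6.62e-05). Those of SASH1 (2.20, adjusted p = 0.0931) and EPDR1 (-2.31, adjusted p = 0.0505) did not pass there.

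The rise was then divided at 4 h. From 2 to 4 h in the LR12 arm, CSF1R rose by 2.01 (limma adjusted p = 0.011) and NEURL1B by 3.81 (adjusted p = 0.000441), 2 of 7 genes against 5.3% of all genes, while EPDR1 fell by 2.23 (adjusted p = 0.00803), against 6.22% of all genes lower. The CSF1R call was lost without Y31310 and in the low-control arrays alone (adjusted p = 0.0743). The NEURL1B step was 2.14 with values raised to the 20th percentile, and its call was lost with the offset of 16 (1.08, adjusted p = 0.188). The EPDR1 step ended with 6 of 6 arrays under the 20th percentile, was -0.80 with values raised to it, and its call was lost with the offset of 16 (-0.30, adjusted p = 0.312) and without Y31310 or Y31313. CX3CR1 differed by 1.13 (adjusted p = 0.124, and 0.0323 with the animal as a block). From 4 to 8 h, CSF1R rose by 2.12 (adjusted p = 0.0131) and NEURL1B by 2.76 (adjusted p = 0.0214), against 3.22% of all genes higher. With the animal as a block 4 genes passed for this step, beside 6.12% of all genes, CX3CR1 (1.37, adjusted p = 0.0141) and SASH1 (1.91, adjusted p = 0.0351) being added. Both 4 to 8 h calls were lost without Y31312 or Y31313, and within the high-control and low-control arrays alone (adjusted p = 0.312 and 0.129 for CSF1R, 0.441 and 0.164 for NEURL1B), and that of NEURL1B also without Y31309 or Y31314. For CDKN1C the 4 to 8 h difference was 0.92 (adjusted p = 0.318).

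In the peptide control arm 3 genes were higher at 8 h than at 2 h, against 2.35% of all genes, and EPDR1 was lower, against 2.85%. CSF1R rose by 2.67 (SE 0.68, limma adjusted p = 0.0132), CX3CR1 by 2.11 (adjusted p = 0.0246) and NEURL1B by 3.19 (adjusted p = 0.0353), and EPDR1 fell by 2.82 (adjusted p = 0.0143). Each of these calls was lost on leaving out Y31306, Y31307 or Y31308, with adjusted p up to 0.147 for CSF1R, 0.261 for CX3CR1, 0.293 for NEURL1B and 0.207 for EPDR1. The NEURL1B call was also lost with the control-signal set as a covariate (adjusted p = 0.0652). EPDR1 passed the filter only through its 0 h arrays, so its steps are a description in this arm too. At 8 h 4 of 4 EPDR1 arrays were under the 20th percentile. The EPDR1 step was -1.20 with values raised to it, and its call was lost with the offset of 16 (-0.48, adjusted p = 0.207). SASH1 differed by 2.79 (adjusted p = 0.0705, and 0.0109 with the animal as a block), VMO1 by 1.09 (adjusted p = 0.724) and CDKN1C by 0.37 (adjusted p = 0.815). From 2 to 4 h only EPDR1 was lower (-3.41, adjusted p = 0.00543), against 2.95% of all genes lower. All 4 arrays at 4 h were under the 20th percentile, the step was -1.31 with values raised to it, and the call was lost with the offset of 16 (-0.51, adjusted p = 0.152) and without Y31306, Y31307 or Y31308. From 4 to 8 h none of the 7 passed (2 at an unadjusted p under 0.05), where 0.112% of all genes passed in either direction.

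In the vehicle arm no gene of the 7 passed for any step. The share of all genes called in either direction was 0% from 2 to 4 h, 0% from 4 to 8 h and 0.00624% from 2 to 8 h, and 1, 0 and 2 of the 7 had an unadjusted p under 0.05. CSF1R was 1.41 higher at 8 h than at 2 h, of which Y31303 alone rose by 4.04, and the value without Y31303 was 0.53. EPDR1 was 2.87 lower (limma adjusted p = 0.24).

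**Figure D3:**
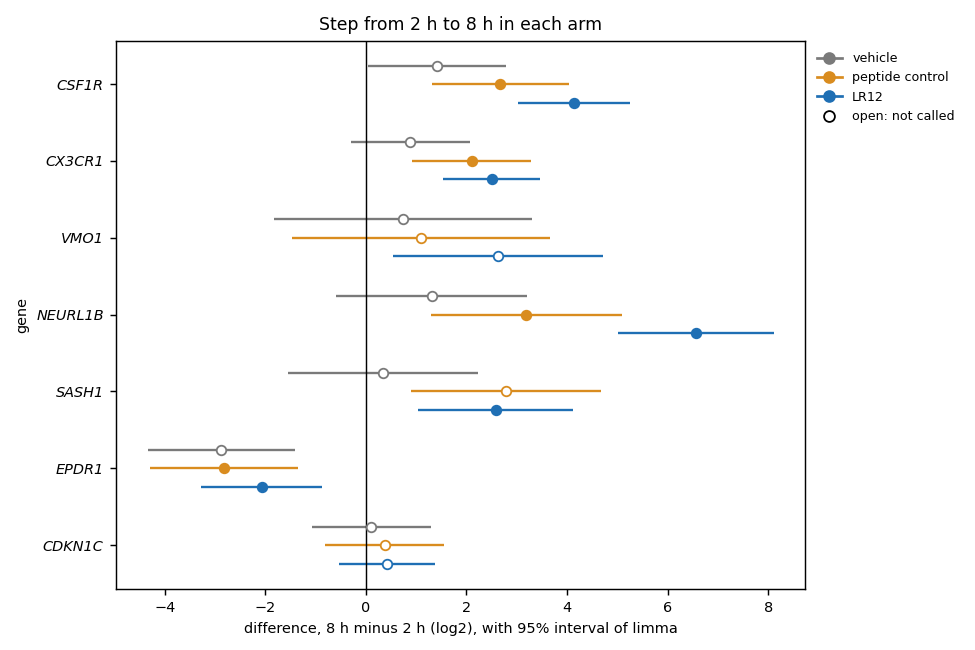
Difference of mean log2 intensity, 8 h minus 2 h, for each gene in the vehicle, peptide control and LR12 arms, with its 95% limma interval and filled points where the adjusted p was below 0.05. CSF1R, CX3CR1 and NEURL1B are filled on the higher side in both peptide arms, EPDR1 is filled on the lower side in both, and no vehicle point is filled.

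At 0 h the arms were compared first, which measures no fall. None of the 7 genes passed between any 2 arms (limma, smallest adjusted p = 0.999, 0 genes at an unadjusted p under 0.05), with differences from -0.81 to 0.74. The shares of all genes called at 0 h were 0.0187% for LR12 minus vehicle, 0% for LR12 minus peptide control and 0% for peptide control minus vehicle.

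At 2 h 5 of 7 genes were lower in the LR12 arm than in the vehicle arm, against 11.3% of all genes lower. The 2, 4 and 8 h arrays also served to choose the genes. This count, and those between arms below, are therefore a description. The difference was -2.94 for CSF1R (SE 0.62, limma adjusted p = 0.000904), -2.32 for CX3CR1 (SE 0.54, adjusted p = 0.00216) and -4.97 for VMO1 (SE 1.16, adjusted p = 0.00248). It was -5.63 for NEURL1B (SE 0.86, adjusted p = 2.16e-05), or -4.11 with values raised to the 20th percentile. These 4 calls held on leaving out each animal in turn, and within the low-control arrays (CSF1R -2.91, CX3CR1 -2.26, VMO1 -4.84, NEURL1B -6.13). SASH1 was lower by a narrow margin (-2.39, adjusted p = 0.0484), and its call was lost in 17 of 23 alternatives. EPDR1 (-1.57, adjusted p = 0.101) and CDKN1C (-1.19, adjusted p = 0.125) did not pass. Without Y31303, whose 2 h values lie with the LR12 animals, all 7 were lower, beside 15% of all genes. CSF1R was then at -4.11, NEURL1B at -7.17, EPDR1 at -1.97 and CDKN1C at -1.93. This is a description, as Y31303 was singled out by those 2 h values.

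At 4 h CX3CR1 (-1.75, limma adjusted p = 0.0256) and VMO1 (-4.46, adjusted p = 0.00907) were lower in the LR12 arm than in the vehicle arm, 2 of 7 against 7.56% of all genes lower. With the animal as a block NEURL1B (adjusted p = 0.0455) and CDKN1C (adjusted p = 0.0332) were added, making 4 (9.01% of all genes lower). Without Y31303, 6 passed (15.4% of all genes lower), 4 without Y31305 (8.43%) and 0 without Y31301 or Y31302. The CX3CR1 call was also lost without Y31304, Y31310 or Y31311. Within the low-control arrays VMO1 (-6.73, adjusted p = 0.00284) and CDKN1C (-2.47, adjusted p = 0.0115) were lower, and no gene was called within the high-control arrays. At 8 h none passed (1 at an unadjusted p under 0.05), against 1.79% of all genes lower. The widest difference at that hour was that of VMO1 (-3.08, interval -5.42 to -0.74, adjusted p = 0.118), which passed without Y31303 (adjusted p = 0.0205).

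The LR12 and peptide control arms received peptides that differ in the order of their residues. At 2 h only NEURL1B was lower in the LR12 arm (-4.08, SE 0.86, interval -5.81 to -2.34, limma adjusted p = 0.00706), 1 of 7 against 2.71% of all genes lower. Its values ran from -1.14 to 3.12 in the LR12 arm and from 3.51 to 7.14 in the peptide control arm. With values raised to the 20th percentile the difference was -2.41. Without Y31305 it was -3.26 (adjusted p = 0.0635), and with the offset of 16 it was -1.34 (adjusted p = 0.2), so the call was lost in both. CSF1R was at 5.31 to 6.68 against 6.71 to 9.94, and differed by -1.66 (interval -2.91 to -0.41, adjusted p = 0.126). That value passed without Y31303 (adjusted p = 0.0119) and was -0.92 without Y31305 (adjusted p = 0.575). VMO1 differed by -3.01 (adjusted p = 0.141). CX3CR1 differed by -0.90 (interval -1.98 to 0.18), and by -0.09 without Y31305. At 4 and 8 h none passed (1 and 0 at an unadjusted p under 0.05), against 0.98% of all genes lower at 4 h and 0.0187% called in either direction at 8 h.

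Between peptide control and vehicle none of the 7 genes passed at 2, 4 or 8 h by limma with all animals, and 2, 3 and 0 genes had an unadjusted p under 0.05. The shares of all genes called were 0%, 0.00624% and 0%. Y31303 was singled out by its low 2 h values, so what follows without it is a description and no test of these genes. Without Y31303, CSF1R (-2.45, adjusted p = 0.001), CX3CR1 (-2.34, adjusted p = 0.00132) and NEURL1B (-3.10, adjusted p = 0.0109) were lower in the peptide control arm at 2 h. These 3 of 7 stood beside 1.84% of all genes lower without that animal. Without Y31305 1 gene was lower (0.98% of all genes), and without both animals 6 at 2 h and 5 at 4 h (5.04% and 9.29% of all genes). These comparisons share the vehicle and peptide control arrays with those of the LR12 arm and are not independent of them.

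Differences between arms in the change from 0 h to 2 h are built from the changes that served to choose the genes, so they are given as a description, without a test. For NEURL1B the LR12 minus vehicle value was -5.43, and -2.61 with the offset of 16, and the LR12 minus peptide control value was -4.30. Over all genes, 1.39% passed as lower in LR12 minus vehicle by limma, 0% in either direction in LR12 minus peptide control and 0% in peptide control minus vehicle. Nothing is read from these shares about the 7 genes.

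**Figure D4:**
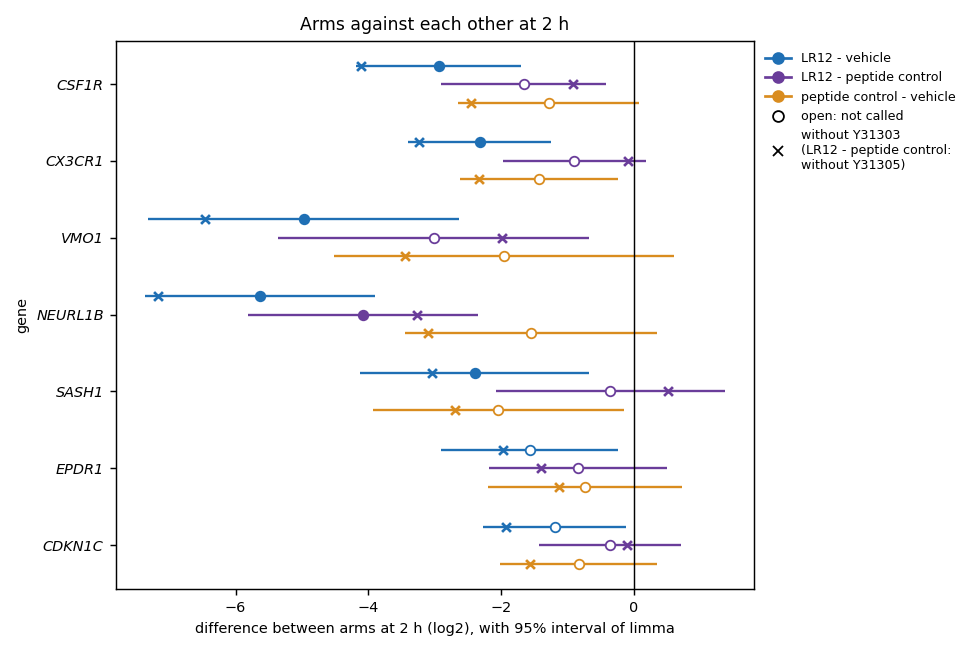
Difference of mean log2 intensity between arms at 2 h for each gene, as LR12 minus vehicle, LR12 minus peptide control and peptide control minus vehicle, with 95% limma intervals and crosses for the value without Y31303 (without Y31305 for LR12 minus peptide control). Removing Y31303 moves the LR12 minus vehicle values down, and removing Y31305 moves the LR12 minus peptide control values of CSF1R, CX3CR1, VMO1, NEURL1B and CDKN1C toward 0.

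Other genes of CD16-positive monocytes did not all follow the 7. Of 30 tested, 11 were lower and 7 higher at 2 h than at 0 h in the LR12 arm, 10 and 6 at 4 h, and 3 and 7 at 8 h, with medians of -0.26, -0.28 and 0.19. Of all genes, 21.9%, 26% and 20.4% were lower and 10.1%, 10.8% and 8.65% higher at these hours, so the 3 lower at 8 h were a smaller share than that of all genes. The 10 lower at 4 h were not far above the share of all genes. From 2 to 8 h 10 of the 30 rose and 2 fell, against 9.66% of all genes higher and 9.7% lower. MS4A7, a membrane protein of the MS4A family, fell by 3.94 at 2 h and was still 1.84 lower at 8 h (limma adjusted p = 0.0152). ZNF703, a zinc finger repressor, fell by 3.79 and differed by -0.64 at 8 h (adjusted p = 0.331). TCF7L2, a transcription factor of the Wnt pathway, fell by 2.83 and differed by -0.09 at 8 h (adjusted p = 0.889). C1QB, a chain of complement C1q with a dim signal here, fell by 2.52 and was at 0.75 at 8 h (adjusted p = 0.49). BATF3, a bZIP transcription factor, rose by 3.32 and HMOX1, the inducible heme oxygenase, by 3.26 at 2 h, and both were still higher at 8 h (1.93 and 2.77). In the peptide control arm 2 of the 30 rose and 2 fell at 2 h, against 2.2% of all genes higher and 1.1% lower. With the animal as a block 4 rose and 4 fell (4.37% and 3.26% of all genes). Without Y31303 and Y31305 the numbers were 4 and 6 (4.63% and 3.73%). The 2 that fell with all animals and no block were ZNF703 (-2.35, adjusted p = 0.0122) and TCF7L2 (-1.58, adjusted p = 0.0453). In the vehicle arm none of the 30 passed at any hour (2, 5 and 1 at an unadjusted p under 0.05 at 2, 4 and 8 h).

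Most genes listed for classical monocytes were higher after 0 h in the LR12 arm. Most neutrophil markers (below) rose over the same hours, and the part of neutrophils in the rise of this list was not tested. Of 22 tested, 2 of which are also on the neutrophil list below, 15 rose and 2 fell at 2 h, 13 rose and 0 fell at 4 h, and 14 rose and 0 fell at 8 h, with medians of 0.73, 0.85 and 0.91, against the same 10.1%, 10.8% and 8.65% of all genes higher and 21.9%, 26% and 20.4% lower. CD14, the endotoxin co-receptor, rose by 1.65 at 2 h (limma adjusted p = 6.42e-07) and was at 0.39 at 8 h (adjusted p = 0.232). S100A12, a calcium-binding protein of myeloid cells, rose by 3.37 at 2 h, and MARCO, a scavenger receptor, by 4.24 at 2 h and 9.29 at 8 h from a dim 0 h level of 1.41. In the peptide control arm 1 of the 22, CD14 (1.15, adjusted p = 0.0176), rose at 2 h, against 2.2% of all genes higher. With the animal as a block 4 rose (4.37% of all genes). In the vehicle arm none passed at 2 h (4 at an unadjusted p under 0.05, and 1 with the animal as a block). With the block, 0.0687% of all genes were higher and 0.00624% lower there.

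**Figure D5:**
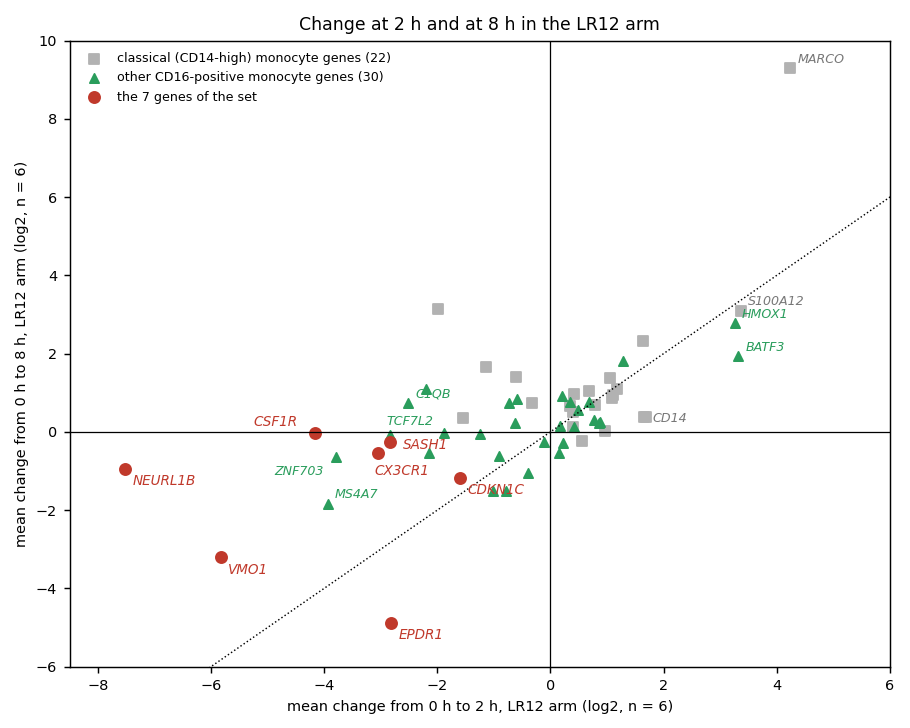
Mean log2 change from 0 h in the LR12 arm (n = 6) at 2 h (horizontal axis) against 8 h (vertical axis) for the 7 genes, the 30 other CD16-positive monocyte genes and the 22 classical monocyte genes, with equality dotted. CSF1R, CX3CR1, NEURL1B and SASH1 lie far to the left and near 0 on the vertical axis, EPDR1 lies below the line, and most classical genes lie above 0 on both axes.

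The ligands, shedding proteases and signalling proteins of the 2 receptors were read next. Of 15 tested, 8 rose and 1 fell at 2 h in the LR12 arm, 3 and 1 at 4 h, and 2 and 2 at 8 h, against 10.1%, 10.8% and 8.65% of all genes higher and 21.9%, 26% and 20.4% lower. Only the count of those that rose at 2 h stood well above the share of all genes, and it was 4 after quantile normalization. With arrays centred on their median 6 rose and 0 fell at 4 h, and 5 and 1 at 8 h. CX3CL1, the fractalkine gene, had a dim level of 2.31 ± 1.3 at 0 h and 4.06 ± 1.51 at 2 h (SD, n = 6), a rise of 1.75 (limma adjusted p = 0.0441). In the vehicle arm CX3CL1 was at 1.86 ± 1.73 and 3.76 ± 0.57 at the same hours (SD, n = 4), a difference of 1.90 that did not pass, and in the peptide control arm at 2.56 ± 1.31 and 2.80 ± 1.39. CSF1, a ligand of CSF1R, differed by -0.16 at 2 h (adjusted p = 0.766) and fell by 1.25 at 8 h (adjusted p = 0.00284), the hour at which the mean CSF1R change was -0.03. ADAM17, a protease that sheds CSF1R and fractalkine from the cell surface, rose by 1.15 at 2 h, and ADAM10, which also sheds fractalkine, fell by 0.88. IL34 was not tested.

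Among 17 transcription factors of the CSF1R locus and of monocyte fate, 6 rose and 8 fell at 2 h in the LR12 arm, 5 and 5 at 4 h, and 4 and 3 at 8 h (9 rose at 4 h, and 7 rose and 1 fell at 8 h, with arrays centred on their median). Of all genes 10.1%, 10.8% and 8.65% were higher and 21.9%, 26% and 20.4% lower, so the 5 lower at 4 h and the 3 lower at 8 h were near the share of all genes. KLF4, which promotes monocyte differentiation, fell by 3.97 at 2 h and was back at 8 h (0.20, limma adjusted p = 0.805), a rise of 4.16 from 2 to 8 h (adjusted p = 9.86e-09). CEBPA, a myeloid factor, fell by 2.99 at 2 h and was at 0.64 at 8 h. NR4A1, on which patrolling monocytes of mice depend, fell by 1.22 at 2 h (adjusted p = 0.00562) and differed by -0.82 at 8 h (adjusted p = 0.0712). SPI1, which encodes PU.1, differed by 0.46 at 2 h (adjusted p = 0.0918, and 0.0449 with the animal as a block) and rose by 0.68 at 8 h (adjusted p = 0.0116). Of 5 other inhibitors of cyclin-dependent kinases, 2 rose and 0 fell at 2 h, with CDKN2B 2.19 higher (adjusted p = 8.28e-05) and 2.59 higher at 8 h, while the CDKN1C level was below its 0 h value at both hours.

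Markers of other blood cells moved over the same hours. In the LR12 arm 13, 17 and 16 of 17 T cell markers, 11, 12 and 9 of 20 NK cell markers, 11, 7 and 7 of 13 B cell markers and 9, 9 and 8 of 12 dendritic cell markers were lower than at 0 h at 2, 4 and 8 h. Of 15 neutrophil markers 9, 10 and 10 were higher, 0, 6 and 6 of 11 platelet markers were lower, and 0, 0 and 4 of 8 red cell markers. Of all genes, 21.9%, 26% and 20.4% were lower and 10.1%, 10.8% and 8.65% higher at these hours. CX3CR1 is also carried by NK cells and some T cells. The mean log2 level over the NK list in the LR12 animals ranged from 6.94 to 7.52 at 0 h, 5.68 to 6.17 at 2 h, 5.11 to 6.24 at 4 h and 5.62 to 6.00 at 8 h. The T list ranged from 8.48 to 9.09 at 0 h, 6.65 to 8.55 at 2 h and 6.39 to 7.69 at 8 h. The part of these cells in the levels of the 7 genes was not tested.

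Among all genes ranked by likeness to CSF1R over the 56 arrays (Pearson r, a description whose points share animals and hours), the nearest 6 were TGFBI (0.943), KLF4 (0.933), C2CD2L (0.927), SCARB2 (0.926), ZFHX3 (0.924) and DES (0.921). For CX3CR1 they were DES (0.95), PAQR4 (0.935), TCF7L2 (0.932), C2CD2L (0.929), LMO4 (0.926) and MS4A7 (0.924). Within the 7 genes, CSF1R and CX3CR1 were most alike (r = 0.948, and 0.893 on deviations from the group means), CSF1R and NEURL1B had r = 0.925, and EPDR1 had r from 0.16 to 0.569 with the others. Over the 14 animals at 0 h alone, the r of CSF1R was 0.624 with CX3CR1, 0.807 with NEURL1B and 0.35 with EPDR1.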

How the data were processed

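Whole-blood RNA was amplified and hybridised to human HG-U133 Plus 2.0 arrays. The authors deposited linear intensities from MAS5, per the submitters' processing notes, with no version given; each array's trimmed mean (2% off each end) was 150. Here values were set to log2 without an offset. Of 54675 probe sets, 41097 name 1 gene in the platform annotation. A gene was read by its probe set with the highest mean over 56 arrays, and a probe set was tested if above its array's median on at least 4 arrays (38826 probe sets, 16020 genes).

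One limma (3.58.1, R 4.3.3) model of 12 arm-by-hour groups was fitted to all genes, with trend and robust settings, and 39 comparisons were adjusted by Benjamini-Hochberg each on its own, with calls at an adjusted p below 0.05. The fit was checked on simulated data. The animal as a block (duplicateCorrelation, statmod 1.5.0, consensus correlation 0.221) was an alternative. The labels give the animal: residuals of arrays of the same animal had a mean correlation of 0.18 (0.103 to 0.329 by animal), against -0.029 between animals, and 45 of 56 arrays were most like one of their own animal.

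The members and lists were chosen with earlier results of these data known. All 7 members are named. In each companion list at most 6 called genes with the widest change are named for a comparison, with FCGR3A, CD14, NR4A1, CSF1, IL34, CX3CL1 and SPI1 where measured, and the 6 genes most like CSF1R and CX3CR1. ICAM1 and the 2 animals that stood apart were singled out after their values were seen. Alternatives were an offset of 16, array centring, quantile normalization, no filter, eBayes without trend, the control-signal set as covariate or alone, the mean over probe sets, and leaving out each animal.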

Additional observations from a re-analysis of the deposited data

Results flagged for a closer look

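Of 84 gene-by-group sets of 4 or 6 arrays, 10 held an array far from the rest of its group, where about 5% of such sets are expected to by chance. Of the 10 arrays, 5 were of Y31303 and 2 of Y31305.

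In the vehicle arm, Y31303 was the lowest animal for CSF1R at 0 h (log2 intensity 9.93, the next at 10.73) and at 2 h (5.48, next 9.93). At 2 h it was also the lowest for CX3CR1 (7.51, next 10.82), VMO1 (2.92, next 8.55) and NEURL1B (1.61, next 7.39).

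In the peptide control arm at 2 h, Y31305 was the highest animal for CSF1R (9.94, next 7.13) and CX3CR1 (11.22, next 8.16).

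At 8 h in the LR12 arm, CSF1R was lowest in Y31311 (9.51, next 10.12), and NEURL1B was highest in Y31309 (8.39, next 7.20). At 4 h in the vehicle arm, EPDR1 was highest in Y31301 (2.95, next 0.40).

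The change of NEURL1B from 0 h to 2 h differed between the LR12 and vehicle arms by -5.43. NEURL1B was chosen for its change from 0 h, so this value is a description. Over 23 alternatives the value ran from -6.84 to -2.61.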

How the results depend on the processing

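The 210 member comparisons, the differences in change from 0 h among them, were recomputed 4809 times. Of the 25 alternatives, the mean over probe sets was run only for changes from 0 h and is not among these values. Of the recomputed values, 0 turned sign where either value was called, and 149 did where neither was. Of 83 counts over members, lists and all genes, 17 moved by over 1.5 times with array centring, 12 with quantile normalization, 4 without a filter, 6 with eBayes without trend and 16 with the control set as covariate. None of these were among the 26 counts over the members and over the CD16-positive and classical lists. The cause of the changes below was not tested. Some of the settings also hold fewer arrays.

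With an offset of 16, 1 gene rose from 2 to 4 h in the LR12 arm, and 0 were lower in LR12 than in peptide control at 2 h and in the change to 2 h against vehicle. With the animal as a replicate block, 4 rose from 4 to 8 h in the LR12 arm (6.12% of all genes) and 4 were lower than in vehicle at 4 h (9.01%). In the same fit, 4 (against vehicle, 7.72% of all genes) and 1 (against peptide control, 1.09%) fell further to 2 h. Without Y31303 and Y31305 together, an alternative chosen after seeing the data, 4 rose from 4 to 8 h (5.31% of all genes) and 6 were lower than in vehicle at 4 h (16.3%). The count falling further than in vehicle to 2 h was 4 (5.41%), and 3 were lower than in vehicle at 8 h (12.9%). Peptide control was lower than vehicle in 6 at 2 h and 5 at 4 h (5.04% and 9.29%). In high-control arrays alone (also added), 0 rose from 4 to 8 h and 0 were lower than in vehicle at 4 h. In low-control arrays alone (also added), 1 rose from 2 to 4 h, 0 from 4 to 8 h, 0 fell further to 2 h than in vehicle, and 6 other CD16-positive genes were lower at 4 h. The block changed no other of these 26 counts by over 1.5 times. Counts of genes falling further to 2 h are descriptions, since that change served to choose the genes.

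Leaving out 1 animal at a time gave 1 to 3 genes rising from 2 to 4 h, 0 to 4 from 4 to 8 h (LR12), 0 to 4 from 2 to 8 h (peptide control), 0 to 6 and 0 to 1 lower in LR12 than in vehicle at 4 and 8 h, and 0 to 2 lower than in peptide control at 2 h. It gave 0 to 3 lower in peptide control than in vehicle at both 2 and 4 h, 0 to 4 and 0 to 1 falling further to 2 h in LR12 than in vehicle and peptide control, 2 to 6 CD16-positive genes higher in LR12 at 4 h and 1 to 3 classical genes lower at 2 h. CX3CR1 was at 0.04 at 8 h from 0 h in the LR12 animals with both arrays in the low-control set, against -0.55 in all 6. As 3 of the 6 LR12 arrays at 8 h were in the high set, the first value rests on few animals. Signal near background limits NEURL1B and VMO1 at 2 h and EPDR1 at 4 and 8 h: with the offset of 16 the LR12 change was -4.03 for NEURL1B and -3.84 for VMO1 at 2 h and -1.37 for EPDR1 at 8 h.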
